A study of Mus musculus with 12 samples.

Results

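The 44 genes described here encode proteins of DNA replication (15 genes) and of mitosis (29 genes), and their RNA was measured in mouse liver with the Affymetrix whole-genome mouse array. Members were chosen by exact gene symbol. Of the 44, 43 had at least 1 probe set that names a single gene, and they are 43 of the 18194 genes so measured. Ccnb1 had no such probe set in the annotation used and is named only. Where a gene had several probe sets the one brightest on average across the 12 arrays stands for it, and values are log2 intensities, so that a difference of 1 is a change of 2-fold. The 4 labelled groups of 3 male mice each on the 129J background were compared, with 1 array for each animal: liver tumors of IQGAP2 knockout (KO) mice at 24 months, normal liver of KO mice at 6 months, normal liver of wild-type (WT) mice at 24 months and normal liver of WT mice at 6 months. The knockout was of the whole animal, and the labels give no treatment. The design asks how gene expression differs by genotype at each age, and with age and tumor formation within each genotype.

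A cell copies its DNA in S phase and divides in mitosis. Origins are licensed when CDC6 helps load the MCM2 to MCM7 helicase, which geminin (Gmnn) restrains, E-type cyclins drive S phase entry, PCNA is the sliding clamp of the polymerases, and ribonucleotide reductase (Rrm1, Rrm2), thymidylate synthase (Tyms) and thymidine kinase (Tk1) supply precursors. Cyclins A and B with CDK1 then drive mitosis, aurora and polo-like kinases build the spindle, BUB1, BUBR1 (Bub1b) and TTK act in its checkpoint, and CDC20 and UBE2C work with the anaphase promoting complex. Adult hepatocytes are mostly quiescent, so RNAs of both classes are low in normal adult liver and rise in regeneration and in many liver tumors.

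Promoters of these genes carry known sequence elements, and 9 promoters are shown because the results below turn on their genes: 5 mitotic genes with their highest levels under the label WT 6 months (Cdc20 on 2 of its 3 probe sets), 2 MCM genes, and Ccnf and Tk1, whose brightest probe sets averaged lowest there. Each runs from 250 bases before to 50 bases after the RefSeq start site (GRCm38.p6), 5′ to 3′ on the gene's strand. Capitals mark the CHR element TTTGAA, the CCAAT box CCAAT and the E2F site forms TTTCCCGC, TTTGGCGC, TTTCGCGC and TTTGCCGC, all searched on both strands, and overlapping matches run together.
Mki67 (chr7:135716330-135716629, minus strand): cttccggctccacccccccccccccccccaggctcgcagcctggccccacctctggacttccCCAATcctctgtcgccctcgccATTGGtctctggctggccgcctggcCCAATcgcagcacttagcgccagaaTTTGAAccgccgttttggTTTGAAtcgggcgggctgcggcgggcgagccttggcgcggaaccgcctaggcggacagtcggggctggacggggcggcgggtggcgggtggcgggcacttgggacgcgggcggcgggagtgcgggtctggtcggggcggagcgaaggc
Ccnb2 (chr9:70421505-70421804, minus strand): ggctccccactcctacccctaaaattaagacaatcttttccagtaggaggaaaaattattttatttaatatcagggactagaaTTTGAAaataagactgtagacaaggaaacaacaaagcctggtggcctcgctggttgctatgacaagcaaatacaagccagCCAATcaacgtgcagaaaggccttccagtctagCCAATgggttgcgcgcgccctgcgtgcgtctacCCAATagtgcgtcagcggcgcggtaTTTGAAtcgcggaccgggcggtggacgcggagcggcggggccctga
Cdk1 (chr10:69352863-69353162, minus strand): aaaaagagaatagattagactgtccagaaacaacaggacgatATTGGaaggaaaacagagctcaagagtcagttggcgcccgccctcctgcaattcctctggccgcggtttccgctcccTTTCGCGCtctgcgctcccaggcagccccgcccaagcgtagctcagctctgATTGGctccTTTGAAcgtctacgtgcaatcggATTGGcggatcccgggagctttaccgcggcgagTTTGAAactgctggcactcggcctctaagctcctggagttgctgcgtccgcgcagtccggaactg
Ube2c (chr2:164769679-164769978, plus strand): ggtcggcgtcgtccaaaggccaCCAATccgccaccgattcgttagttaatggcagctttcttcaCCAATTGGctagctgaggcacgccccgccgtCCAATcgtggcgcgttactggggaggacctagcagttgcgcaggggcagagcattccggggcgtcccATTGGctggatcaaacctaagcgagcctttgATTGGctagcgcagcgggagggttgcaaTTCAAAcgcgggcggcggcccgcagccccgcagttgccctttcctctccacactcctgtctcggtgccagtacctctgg
Cdc20 (chr4:118437294-118437593, minus strand): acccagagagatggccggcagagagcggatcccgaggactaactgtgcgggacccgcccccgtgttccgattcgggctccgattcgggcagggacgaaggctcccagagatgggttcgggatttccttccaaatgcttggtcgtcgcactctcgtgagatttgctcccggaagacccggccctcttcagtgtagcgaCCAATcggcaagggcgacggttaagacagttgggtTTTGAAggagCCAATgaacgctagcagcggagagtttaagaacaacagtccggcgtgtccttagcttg
Ccnf (chr17:24251360-24251659, minus strand): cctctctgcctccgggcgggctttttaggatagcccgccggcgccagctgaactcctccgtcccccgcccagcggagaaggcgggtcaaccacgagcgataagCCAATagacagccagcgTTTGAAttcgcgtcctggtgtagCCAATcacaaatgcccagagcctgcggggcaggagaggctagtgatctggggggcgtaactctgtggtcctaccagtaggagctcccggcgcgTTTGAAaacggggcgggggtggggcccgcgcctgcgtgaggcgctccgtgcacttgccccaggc
Mcm3 (chr1:20820263-20820562, minus strand): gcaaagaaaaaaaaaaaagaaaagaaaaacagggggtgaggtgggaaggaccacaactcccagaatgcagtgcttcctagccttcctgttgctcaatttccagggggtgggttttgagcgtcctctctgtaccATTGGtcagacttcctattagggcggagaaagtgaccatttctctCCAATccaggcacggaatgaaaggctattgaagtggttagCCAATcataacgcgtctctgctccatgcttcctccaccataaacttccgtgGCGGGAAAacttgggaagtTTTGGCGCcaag
Mcm6 (chr1:128359656-128359955, minus strand): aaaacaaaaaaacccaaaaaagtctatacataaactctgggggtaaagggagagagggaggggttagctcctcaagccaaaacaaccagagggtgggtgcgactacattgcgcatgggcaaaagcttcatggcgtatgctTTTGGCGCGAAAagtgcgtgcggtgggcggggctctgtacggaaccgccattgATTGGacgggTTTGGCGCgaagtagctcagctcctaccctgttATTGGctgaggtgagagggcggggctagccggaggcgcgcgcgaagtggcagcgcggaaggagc
Tk1 (chr11:117825965-117826264, minus strand): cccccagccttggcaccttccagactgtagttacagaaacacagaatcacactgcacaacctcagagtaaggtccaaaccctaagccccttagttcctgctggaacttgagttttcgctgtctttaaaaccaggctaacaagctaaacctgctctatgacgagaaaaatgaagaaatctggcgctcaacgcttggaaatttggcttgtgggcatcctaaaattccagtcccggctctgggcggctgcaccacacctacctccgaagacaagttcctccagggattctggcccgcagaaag

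Of the 43 measured genes, 34 had a promoter in the RefSeq table. A gene was counted if any of its promoters held a match. TTTGAA was found for 17 of 22 mitotic genes and for 1 of 12 replication genes (Mcm2). It was found for 15.7% of the 14453 measured genes with a promoter, and in 17.9% of all 32851 promoters of this length. E2F forms were found for 5 of 12 replication genes (Mcm3, Mcm5, Mcm6, Mcm7 and Cdc6) and for 1 of 22 mitotic ones (Cdk1). The shares were 3.81% of measured genes and 2.26% of all promoters. CCAAT was found for 19 of 22 mitotic and 8 of 12 replication genes, against 42% of measured genes and 37.4% of all promoters. The promoters of Ccnf and Cdc20 held TTTGAA and CCAAT like those of Ccnb2 and Ube2c, while that of Tk1 held none of the letters searched. A match describes the letters in this window and is no evidence of binding.

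Iqgap2, the targeted gene, went against 2 of the 4 labels. It read 12.15, 12.05 and 12.15 in the arrays labelled KO 24 months tumor and 8.12, 8.68 and 8.07 in those labelled KO 6 months. In the arrays labelled WT 24 months it read 12.28, 12.30 and 11.92, and in those labelled WT 6 months 8.38, 8.24 and 8.33. It was thus high in a KO group and low in a WT group, and its other probe set gave the same order, with means of 8.82, 7.36, 8.81 and 7.71. Afp, the fetal serum protein used as a marker of hepatocellular carcinoma, averaged 6.21 ± 0.09 in the arrays labelled KO 24 months tumor, 6.74 ± 0.05 in KO 6 months, 6.55 ± 0.94 in WT 24 months and 12.79 ± 0.66 in WT 6 months (SD, n = 3 each). Every direction below is drawn from the deposited labels as they stand, and groups are called by their label throughout. These values leave it possible that the labels KO 24 months tumor and WT 6 months were exchanged, which was not tested. An exchange would turn the sign of every difference between those 2 groups, and the differences given below relative to WT 6 months would be relative to the tumors. The comparisons of KO 24 months tumor with WT 24 months and with KO 6 months would then hold no tumor, only normal liver. Array medians lay between 5.41 and 5.45 and differences over all 18194 genes had medians of 0.00 to 0.05. Most of the 43 genes were dim, with 17 at a mean of 6 or more and a median of 5.45, against 6.52 over all genes.

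The arrays labelled WT 6 months stood above the other 9 arrays for most mitotic genes. All 3 of these arrays exceeded all 9 others for 19 of 43 genes, of which 18 were mitotic and 1 was Rrm1, against 7.29% of all genes. For 1 gene, Ccnf, all 3 lay below the 9 others, against 7.79% of all genes.

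**Figure D1:**
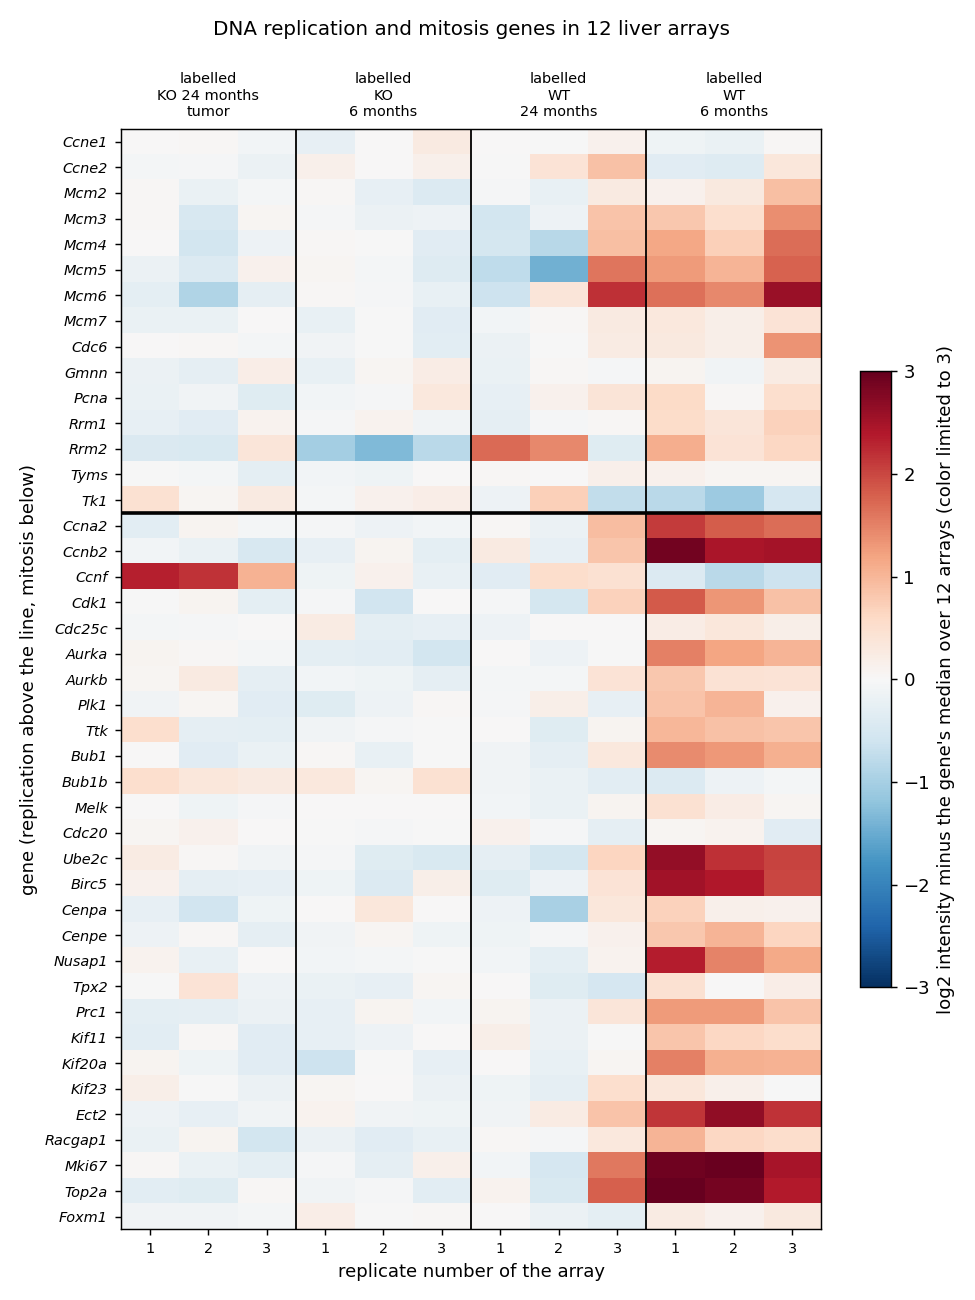
Each row is 1 of the 43 measured genes and each column 1 of 12 arrays, by label and replicate number. Color gives the log2 intensity minus that gene's median over the 12 arrays, with red above and blue below. The mitotic block (below the line) is red in the 3 arrays labelled WT 6 months, Ccnf is red in those labelled KO 24 months tumor, and replicate 3 of WT 24 months is red for Mcm3 to Mcm6, Mki67 and Top2a.

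At 6 months, mitotic genes were lower in livers labelled KO than in those labelled WT. Of 28 measured mitotic genes, 19 fell and 1 (Bub1b) rose at a limma adjusted p of 0.05 or less, with a median difference of -0.96. Of 15 replication genes 7 fell and none rose, with a median of -0.55. Over both classes 26 of 43 genes fell, against 8.04% of all genes called lower, and 1 rose, against 9% called higher. Of the 26, 11 fell by 3-fold or more, against 1.42% of all genes, and 0 rose by as much, against 1.20%. The median difference over all genes was 0.05.

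Mki67, the Ki-67 antigen that coats mitotic chromosomes and marks cycling cells, read 5.02, 4.78 and 5.21 in the arrays labelled KO 6 months, against 7.97, 8.01 and 7.52 in those labelled WT 6 months. The groups did not overlap, and the difference was -2.83 (SE 0.41, limma adjusted p = 0.000776), a 7.09-fold lower intensity. Top2a, the topoisomerase that untangles sister chromosomes, read 4.34, 4.39 and 4.13 against 7.59, 7.31 and 6.82 in the same order of labels, and fell by 2.96 (SE 0.44, limma adjusted p = 0.000938). Both genes lay below the array medians of 5.41 to 5.45 in KO 6 months, where probe background bears on the level, so these are differences of intensity and no measure of the fold in RNA.

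Among mitotic cyclins, Ccnb2 (cyclin B2) read 4.25, 4.57 and 4.20 in KO 6 months and 7.39, 6.95 and 7.0 in WT 6 months. It fell by 2.77 (SE 0.24, limma adjusted p = 2.21e-05). Ccna2, cyclin A2 of S phase and mitosis, was at 4.82, 4.70 and 4.76 in KO 6 months and 6.95, 6.66 and 6.51 in WT 6 months. Both cyclins were also below the array medians in the arrays labelled KO 6 months, and Ccna2 fell by 1.95 (SE 0.24, limma adjusted p = 0.000286). Cdk1, their catalytic partner, fell by 1.56 (SE 0.31, limma adjusted p = 0.00519).

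Of the members in the group of spindle kinases and checkpoint, 5 of 7 were lower on their brightest probe set. The dimmer probe sets of Aurka, Bub1 and Ttk were not called. Their means in KO 6 months and WT 6 months were 4.01 and 3.94, 3.35 and 3.25, and 3.62 and 3.75. Aurka, the aurora kinase of the spindle poles, read 4.75, 4.73 and 4.48 in KO 6 months against 6.54, 6.23 and 6.07 in WT 6 months, and fell by 1.63 (SE 0.13, limma adjusted p = 1.13e-05). Bub1, a checkpoint kinase of the kinetochore, averaged 3.67 ± 0.14 against 5.00 ± 0.18 (SD, n = 3 each) and fell by 1.32 (SE 0.16, limma adjusted p = 0.00024). Aurkb, the catalytic kinase of the chromosome passenger complex, Plk1, the polo-like kinase, and Ttk fell, with differences of -0.72, -0.84 and -0.96. Melk, a kinase expressed in dividing cells, differed by -0.25 and did not pass. Bub1b, the BUBR1 checkpoint protein, was the exception at 5.33, 5.08 and 5.48 against 4.60, 4.87 and 4.96, and rose by 0.48 (SE 0.13, limma adjusted p = 0.025), but its other 2 probe sets fell.

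Ube2c, the ubiquitin-conjugating enzyme of the anaphase promoting complex, read 5.39, 5.05 and 4.96 in KO 6 months and 8.05, 7.60 and 7.44 in WT 6 months. The difference was -2.56 (SE 0.27, limma adjusted p = 8.66e-05). Birc5 (survivin), a subunit of the chromosome passenger complex, was at 4.36, 4.07 and 4.67 against 7.0, 6.88 and 6.50 and fell by 2.43 (SE 0.22, limma adjusted p = 3.33e-05). Cenpe, the kinetochore motor, fell by 0.88 (SE 0.13, limma adjusted p = 0.000749), whereas Cenpa, the centromeric histone H3 variant, averaged 5.94 ± 0.20 against 6.14 ± 0.33 and was not called.

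Of 6 spindle proteins and motors 4 fell, and Tpx2 and Kif23 were not called on their brightest probe sets. Kif20a, a kinesin of the central spindle, averaged 3.86 ± 0.30 in KO 6 months against 5.36 ± 0.26 in WT 6 months and fell by 1.50 (SE 0.18, limma adjusted p = 0.000211). Prc1, which bundles midzone microtubules, averaged 5.42 ± 0.16 against 6.65 ± 0.24 and fell by 1.22 (SE 0.15, limma adjusted p = 0.000307). Nusap1, a microtubule-binding spindle protein, and Kif11, the kinesin that pushes spindle poles apart, fell, with differences of -1.71 and -0.79. Both regulators of RhoA in cytokinesis fell. Ect2, the exchange factor, read 3.99, 3.80 and 3.77 in KO 6 months against 6.05, 6.56 and 6.07 in WT 6 months, a fall of 2.37 (SE 0.21, limma adjusted p = 2.91e-05). Racgap1, a subunit of the centralspindlin complex, fell by 0.96 (SE 0.17, limma adjusted p = 0.00315). Foxm1, a transcription factor of mitotic genes, averaged 6.40 ± 0.11 against 6.55 ± 0.09 and did not pass (difference -0.15, limma adjusted p = 0.347).

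**Figure D2:**
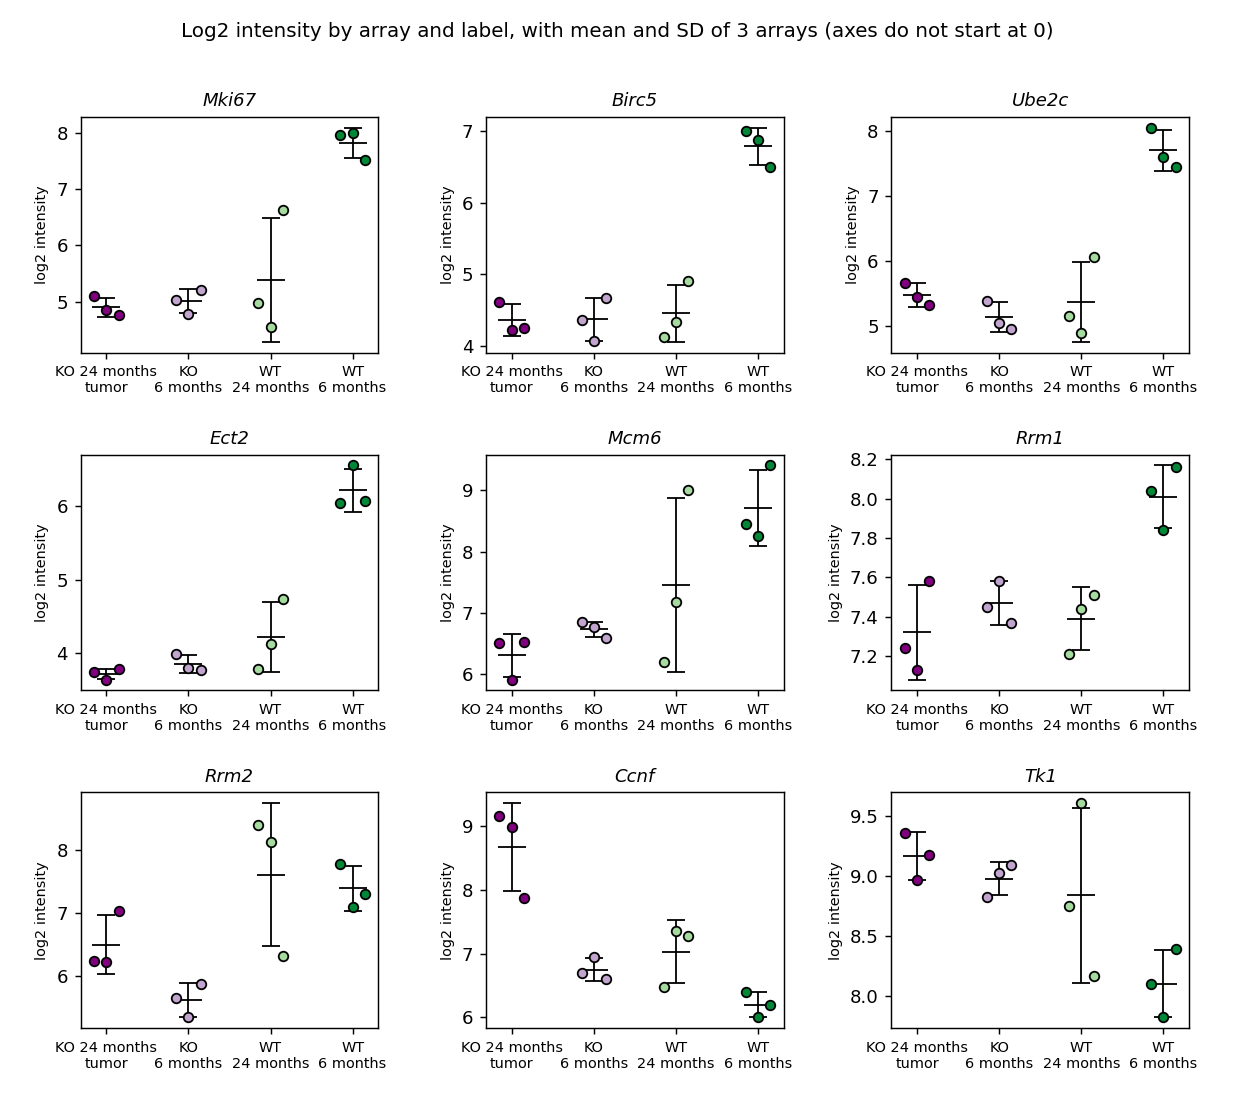
Log2 intensity of 9 genes in each array, in the order of labels KO 24 months tumor, KO 6 months, WT 24 months and WT 6 months, with the mean and SD of 3 arrays. Mki67, Birc5, Ube2c, Ect2 and Rrm1 are highest in all 3 arrays labelled WT 6 months. Mcm6 in replicate 3 of WT 24 months (9.01) lies within the WT 6 months range, Rrm2 is high in replicates 1 and 2 of WT 24 months, and Ccnf and Tk1 are lowest on average in WT 6 months.

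Among replication genes at 6 months, the helicase subunits carried most of the calls. Mcm6 read 6.85, 6.77 and 6.59 in KO 6 months against 8.46, 8.26 and 9.41 in WT 6 months and fell by 1.97 (SE 0.55, limma adjusted p = 0.0307). Mcm7 read 8.91, 9.13 and 8.81 against 9.45, 9.32 and 9.55 and fell by 0.49 (SE 0.12, limma adjusted p = 0.0191). Mcm2, Mcm3 and Mcm4 fell, with differences of -0.65, -1.03 and -1.29. Mcm5 averaged 6.50 ± 0.22 against 7.98 ± 0.38, and was not called (difference -1.48, SE 0.58, limma adjusted p = 0.108). The spread shared by all groups included an SD of 1.60 in the WT 24 months arrays for this gene.

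Both subunits of ribonucleotide reductase fell. Rrm1, the large subunit, read 7.45, 7.58 and 7.37 in KO 6 months against 8.04, 7.84 and 8.16 in WT 6 months and fell by 0.55 (SE 0.14, limma adjusted p = 0.0197). Rrm2, the small subunit, read 5.65, 5.35 and 5.88 against 7.78, 7.09 and 7.30 and fell by 1.76 (SE 0.45, limma adjusted p = 0.0205). Pcna and Tyms did not pass, with differences of -0.31 and -0.15. Tk1 pointed the other way, at 8.83, 9.03 and 9.09 against 8.10, 7.82 and 8.39, and its difference of 0.88 missed the threshold (limma adjusted p = 0.0604). The replication count rested on single arrays. It was 1 of 15 without WT 6 months replicate 3, without KO 6 months replicate 1 or without KO 6 months replicate 3, and 2 of 15 without WT 6 months replicate 1 or without KO 6 months replicate 2. The mitotic count was 17 to 19 under the same omissions.

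In livers labelled WT, mitotic genes were also lower at 24 months than at 6 months. Of 28 mitotic genes 18 fell and none rose (median -0.92), and of 15 replication genes 2 fell (Mcm4 and Rrm1) and none rose (median -0.28). With only these 2 groups in the fit, 13 mitotic and 0 replication genes fell, and Mcm4, Rrm1, Mki67, Top2a and Cdk1 were among those no longer called. Over both classes 20 of 43 fell, against 7.07% of all genes, and 0 rose, against 6.22%. Of the 20, 8 fell by 3-fold or more, against 1.20% of all genes. At an unadjusted limma p of 0.05, 29 were lower and 3 higher, with no share of all genes counted at that threshold to set beside them. Both this comparison and the one at 6 months used the same 3 arrays labelled WT 6 months, so they are given side by side and are not separate evidence.

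Birc5 read 4.12, 4.33 and 4.90 in WT 24 months against 7.0, 6.88 and 6.50 in WT 6 months and fell by 2.35 (SE 0.22, limma adjusted p = 4.76e-05). Ube2c read 5.16, 4.90 and 6.06 in WT 24 months, a fall of 2.33 (SE 0.27, limma adjusted p = 0.000191). Neither gene overlapped between the groups, but in both the third WT 24 months array was the highest of its group. Mki67 and Top2a showed this too, Mki67 at 4.97, 4.54 and 6.63 in WT 24 months (difference -2.45, SE 0.41, limma adjusted p = 0.00224). Aurka, Ect2, Ccnb2 and Nusap1 fell too, with differences of -1.29, -2.01, -2.34 and -1.75. Foxm1 fell by 0.38 (SE 0.10, limma adjusted p = 0.0315), the single call on its brightest probe set. Plk1 and Aurkb, lower in the other comparison, had differences of -0.71 and -0.46 here and did not pass.

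Of the replication genes, Rrm1 fell by 0.62 (SE 0.14, limma adjusted p = 0.0121) and Mcm4 fell by 1.34 (SE 0.39, limma adjusted p = 0.0422). Mcm6 read 6.20, 7.18 and 9.01 in WT 24 months, so its difference of -1.25 had an SE of 0.55 and did not pass. Rrm2 read 8.39, 8.13 and 6.32 in WT 24 months and overlapped with the 7.78, 7.09 and 7.30 of WT 6 months (difference 0.22, limma adjusted p = 0.835).

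**Figure D3:**
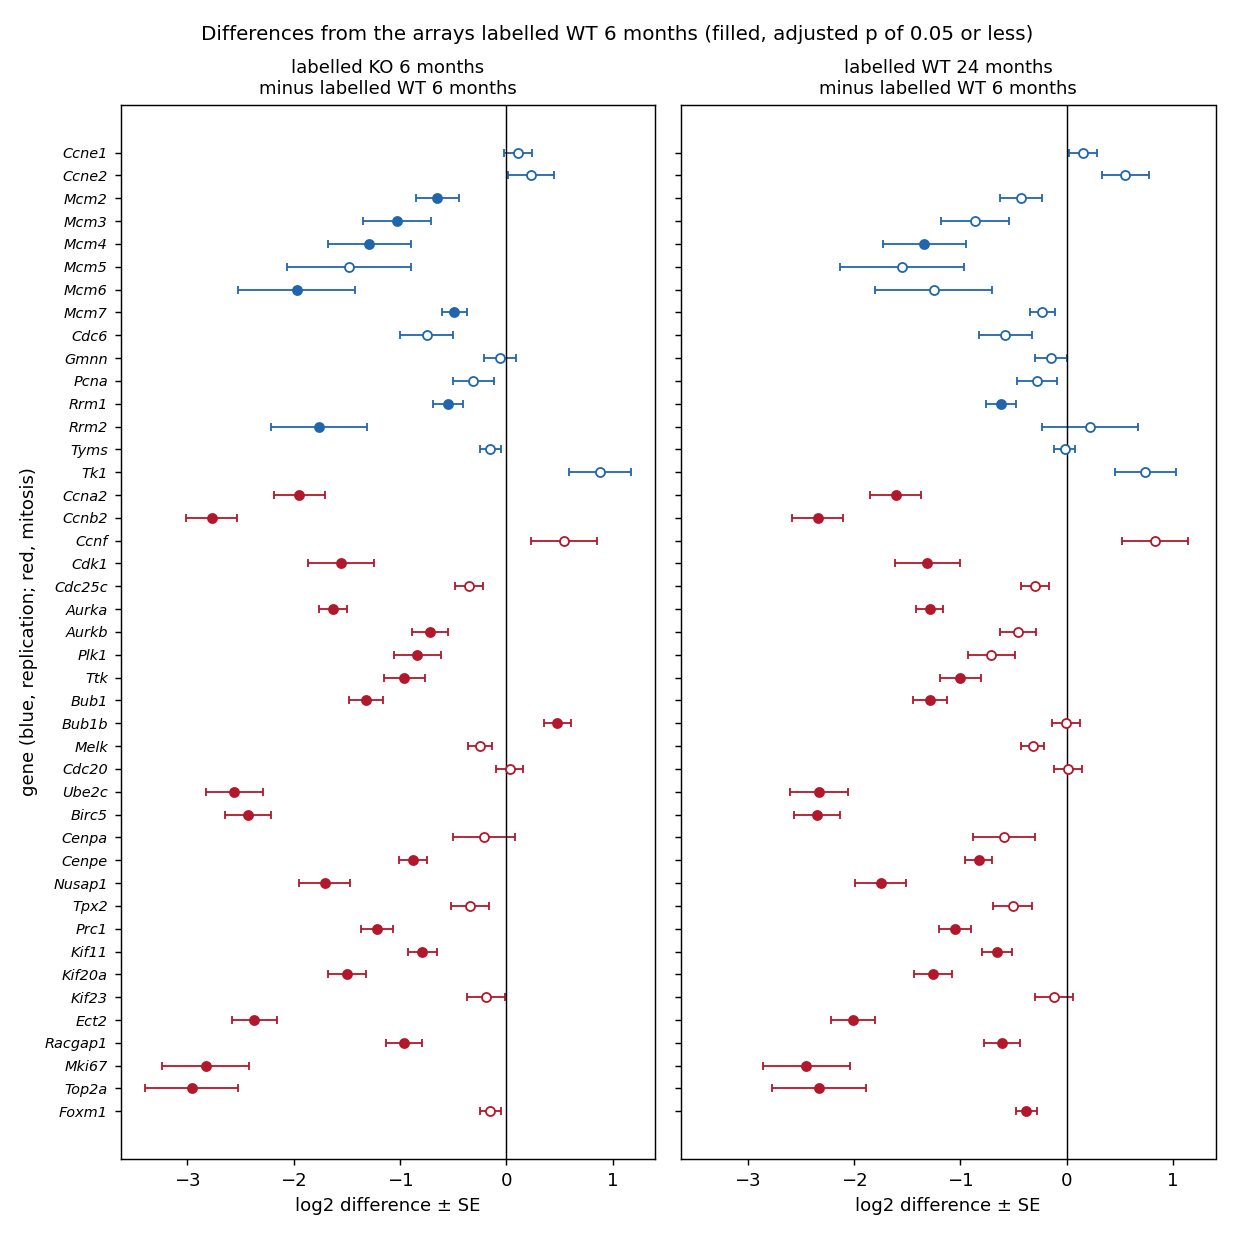
Log2 difference with its SE for each of the 43 genes, labelled KO 6 months minus labelled WT 6 months at the left and labelled WT 24 months minus labelled WT 6 months at the right. Replication genes are blue, mitotic genes red, and filled points passed a limma adjusted p of 0.05. Most red points lie left of 0 in both panels, with 19 and 18 of 28 called lower, and of the blue points 7 and 2 of 15 were called lower.

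Replicate 3 of WT 24 months stood apart from the other 2 arrays of its label in both classes. It was the highest of its group for 12 of 15 replication and 19 of 28 mitotic genes, against 28.6% of all genes. As a median over genes of the deviation from each gene's median, it lay at 0.26 for replication and 0.31 for mitosis, against -0.17 and -0.05 in replicate 1 and 0.00 and -0.19 in replicate 2. Mcm5 had an SD of 1.60 in this group, the highest of the replication genes, at 8.24 in this array and 5.86 and 5.20 in the other 2. Without it, 5 replication genes (Mcm3, Mcm4, Mcm5, Mcm6 and Rrm1) and 19 mitotic genes fell in WT 24 months relative to WT 6 months, and Tk1 rose. Without it, too, Mcm5 joined the replication genes called lower at 6 months, which were then 8.

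The arrays labelled WT 6 months also differed among themselves. Replicate 3 was the highest of the 3 for 12 of 15 replication genes, against 34.5% of all genes. It was the lowest for 22 of 28 mitotic genes, for which no share of all genes was counted. Its median deviation was 0.62 for replication and 0.73 for mitosis, against 0.31 and 1.01 in replicate 1 and 0.18 and 1.02 in replicate 2. Mcm6 was 9.41 in replicate 3 and 8.46 and 8.26 in the other 2, whereas Nusap1 was 5.89 in replicate 3 and 7.10 and 6.23 in the other 2. Cdc6, the helicase loader, was at 5.12 in replicate 3 and at 4.07 and 3.94 in replicates 1 and 2. The 3 arrays of KO 24 months tumor and the 3 of KO 6 months had median deviations of -0.21 to 0.00 in both classes.

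**Figure D4:**
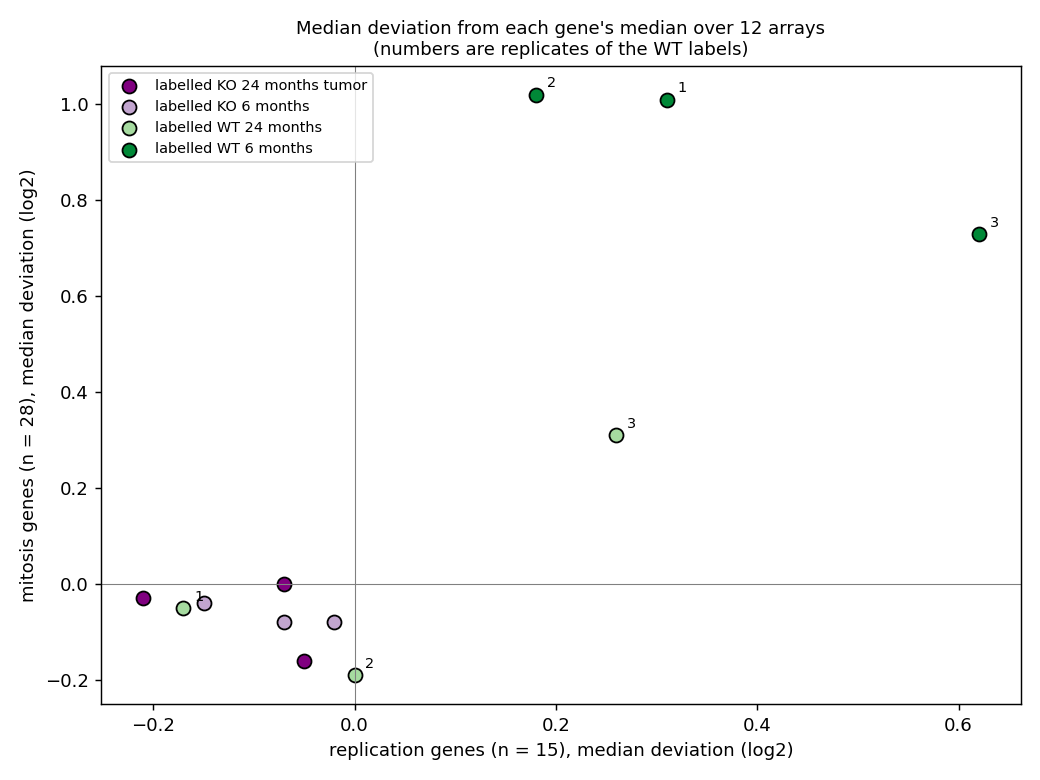
Each point is 1 array, colored by label, with the median deviation of the 15 replication genes on the horizontal axis and that of the 28 mitotic genes on the vertical axis, both in log2 units from each gene's median over 12 arrays. The 3 arrays labelled WT 6 months lie at 0.73 to 1.02 for mitosis and 0.18 to 0.62 for replication, replicate 3 of WT 24 months lies below them for mitosis (0.31) and within their range for replication (0.26), and the other 8 arrays lie at or below 0.

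Few of these genes were called between tumors labelled KO 24 months and livers labelled WT 24 months or KO 6 months. Against WT 24 months, 1 of 43 genes rose and 0 fell, where 0.341% of all genes were called higher and 0.231% lower, and against KO 6 months 0 rose and 0 fell, where 0.0330% and 0% of all genes were called. At an unadjusted limma p of 0.05, 2 were higher and 5 lower against WT 24 months, and 2 higher and 0 lower against KO 6 months. The share of all genes at the unadjusted threshold was not counted, so these unadjusted counts have no comparator. Median differences were -0.09 for replication and -0.08 for mitosis against WT 24 months, and -0.03 and 0.02 against KO 6 months.

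The gene that rose was Ccnf, cyclin F, which is not a CDK activator but the substrate-binding subunit of an SCF ubiquitin ligase that degrades, among other proteins, RRM2. It read 9.15, 8.98 and 7.87 in the arrays labelled KO 24 months tumor, against 6.47, 7.35 and 7.28 in WT 24 months. The groups did not overlap, and the difference was 1.64 (SE 0.31, limma adjusted p = 0.0469), or 3.11-fold. Against the 6.70, 6.94 and 6.60 of KO 6 months the difference was 1.92 with a limma adjusted p of 0.108. The dimmer probe set of Ccnf was also highest in KO 24 months tumor but lowest in KO 6 months (means of 5.26 in KO 24 months tumor, 3.89 in KO 6 months, 4.29 in WT 24 months and 3.98 in WT 6 months), with a difference of 0.97 against WT 24 months that did not pass (limma adjusted p = 0.14, over 34958 probe sets). The Ccnf call in KO 24 months tumor against WT 24 months was close to the threshold. It was lost when any of 10 of the 12 arrays was left out, at limma adjusted p of 0.0536 to 0.205, and was kept without tumor replicate 3 or WT 24 months replicate 1.

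Rrm2 was the largest negative difference to pass an unadjusted limma p of 0.05 in tumors relative to WT 24 months, at 6.24, 6.22 and 7.04 in KO 24 months tumor and 8.39, 8.13 and 6.32 in WT 24 months. The groups overlapped through replicate 3 of WT 24 months (difference -1.11, SE 0.45, limma adjusted p = 0.245), and without that array Rrm2 was called lower. Bub1b had 5.52, 5.35 and 5.30 in tumors against 4.91, 4.81 and 4.71 in WT 24 months, with no overlap and a limma adjusted p of 0.0775. Mki67 averaged 4.90 ± 0.17 in KO 24 months tumor, 5.01 ± 0.21 in KO 6 months and 5.38 ± 1.10 in WT 24 months (SD, n = 3 each), and the tumors passed the test against neither of the other two.

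Set against WT 6 months, tumors labelled KO 24 months had 25 of 43 genes lower and 3 higher, where 8.99% of all genes were called lower and 10.7% higher. The lower ones were 19 mitotic and 6 replication genes (Mcm3, Mcm4, Mcm6, Mcm7, Pcna and Rrm1). The higher ones were Ccnf, Tk1 and Bub1b, of which Bub1b fell on its other 2 probe sets, with differences of -0.73 and -0.70 (limma adjusted p of 0.00236 and 0.00218, over 34958 probe sets). By 3-fold or more 9 fell, against 1.62% of all genes, and 1 (Ccnf) rose, against 1.21%. Ccnf rose by 2.47 (SE 0.31, limma adjusted p = 0.000322) and Tk1, at 9.36, 8.97 and 9.18 against 8.10, 7.82 and 8.39, by 1.07 (SE 0.29, limma adjusted p = 0.0238). Top2a, Mki67 and Ccnb2 fell, with differences of -3.02, -2.94 and -2.87. The arrays labelled WT 6 months are shared with the comparisons above.

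The difference by genotype was tested directly between the ages, as the difference at 24 months minus that at 6 months. By label, the KO arrays at 24 months are tumor and the WT arrays normal liver. Genotype and tissue therefore cannot be told apart in this value. The value was above 0 for 12 of 43 genes, against 2.59% of all genes, and below 0 for 0, against 2.24%. All 12 were mitotic, of 28, with a median of 0.96, and 0 of 15 replication genes passed (median 0.48). Without replicate 3 of WT 24 months the counts were 15 mitotic and 3 replication genes (Mcm3, Mcm4 and Mcm5). This omission gave the highest count, as leaving out 1 array at a time gave 8 to 18 genes. The share of all genes in those fits was not counted. Ube2c had the largest value, 2.67 (SE 0.38, limma adjusted p = 0.00195), since it was 5.48 ± 0.18 in KO 24 months tumor against 5.37 ± 0.61 in WT 24 months, and 5.14 ± 0.23 in KO 6 months against 7.70 ± 0.32 in WT 6 months. The other 11 were Mki67, Birc5, Ccnb2, Ect2, Nusap1, Aurka, Ccna2, Kif20a, Bub1, Prc1 and Cenpe, from 2.35 down to 0.75.

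Likeness over the 12 arrays is given as a description, since all points share the 4 groups. The genes most like Mki67 were Top2a, Bub1 and Ccna2 (r = 0.98 each), and those least like it were Tk1 (r = -0.90), Bub1b (r = -0.60) and Ccnf (r = -0.55). The genes most like Mcm6 were Mcm3 (r = 0.96), Mcm4 (r = 0.90) and Mcm7 (r = 0.89).

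Several genes were called in none of these comparisons on their brightest probe set. Of the replication class these were Ccne1, Ccne2, Mcm5, Cdc6, Gmnn and Tyms, and of the mitotic class Cdc25c, Melk, Cdc20, Cenpa, Tpx2 and Kif23. Ccne1 and Ccne2, the E-type cyclins, lay between 6.30 and 6.45 and between 3.69 and 4.24 in group means. Gmnn lay between 8.12 and 8.29, and Tyms between 3.81 and 4.01. Kif23, the motor subunit of centralspindlin, lay between 5.38 and 5.57, and Cdc25c, a phosphatase that activates CDK1, between 4.44 and 4.79.

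For some of them the probe sets of the gene disagreed. Cdc20, the activator of the anaphase promoting complex, was flat on its brightest probe set, with means of 7.31, 7.22, 7.19 and 7.18 in KO 24 months tumor, KO 6 months, WT 24 months and WT 6 months. Its other 2 probe sets had the mitotic pattern. One read 5.14, 5.25 and 4.89 in KO 6 months against 7.95, 7.52 and 6.91 in WT 6 months, and the other 5.25, 5.16 and 5.24 against 8.49, 8.45 and 7.64. In a fit over all 34958 probe sets these fell, with differences of -2.36 and -2.98 (limma adjusted p of 4.07e-05 and 3.14e-06). Tpx2, which activates aurora A on the spindle, likewise fell on 2 of 4 probe sets, with differences of -0.79 and -0.66, but not on its brightest. Bub1b rose on its brightest probe set in KO 6 months relative to WT 6 months and fell on the other 2, with differences of -0.49 and -0.68.

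Of 29 genes with more than 1 probe set, 18 had differing calls at 6 months between KO and WT, and 1 (Bub1b) opposite ones. The 18 were Mcm3, Mcm5, Mcm6, Mcm7, Rrm1, Rrm2, Cdc25c, Aurka, Ttk, Bub1, Bub1b, Cdc20, Cenpe, Nusap1, Tpx2, Kif11, Racgap1 and Top2a. On any probe set 31 of 43 genes were lower in that comparison. Also relative to WT 6 months, 25 were lower in WT 24 months and 31 in the arrays labelled KO 24 months tumor. Genes with several probe sets have more chances of a call under this rule, and the share of all genes under it was not counted. Bub1b and Top2a had opposite calls in tumors relative to WT 6 months, the second through a dim probe set that was higher by 0.43 (limma adjusted p = 0.0483). Mcm7 was called lower at 6 months on its brightest probe set alone, and another of its probe sets differed by 0.07. No gene was called on any of its probe sets between KO 24 months tumor and WT 24 months or KO 6 months once all 34958 were tested.

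**Figure D5:**
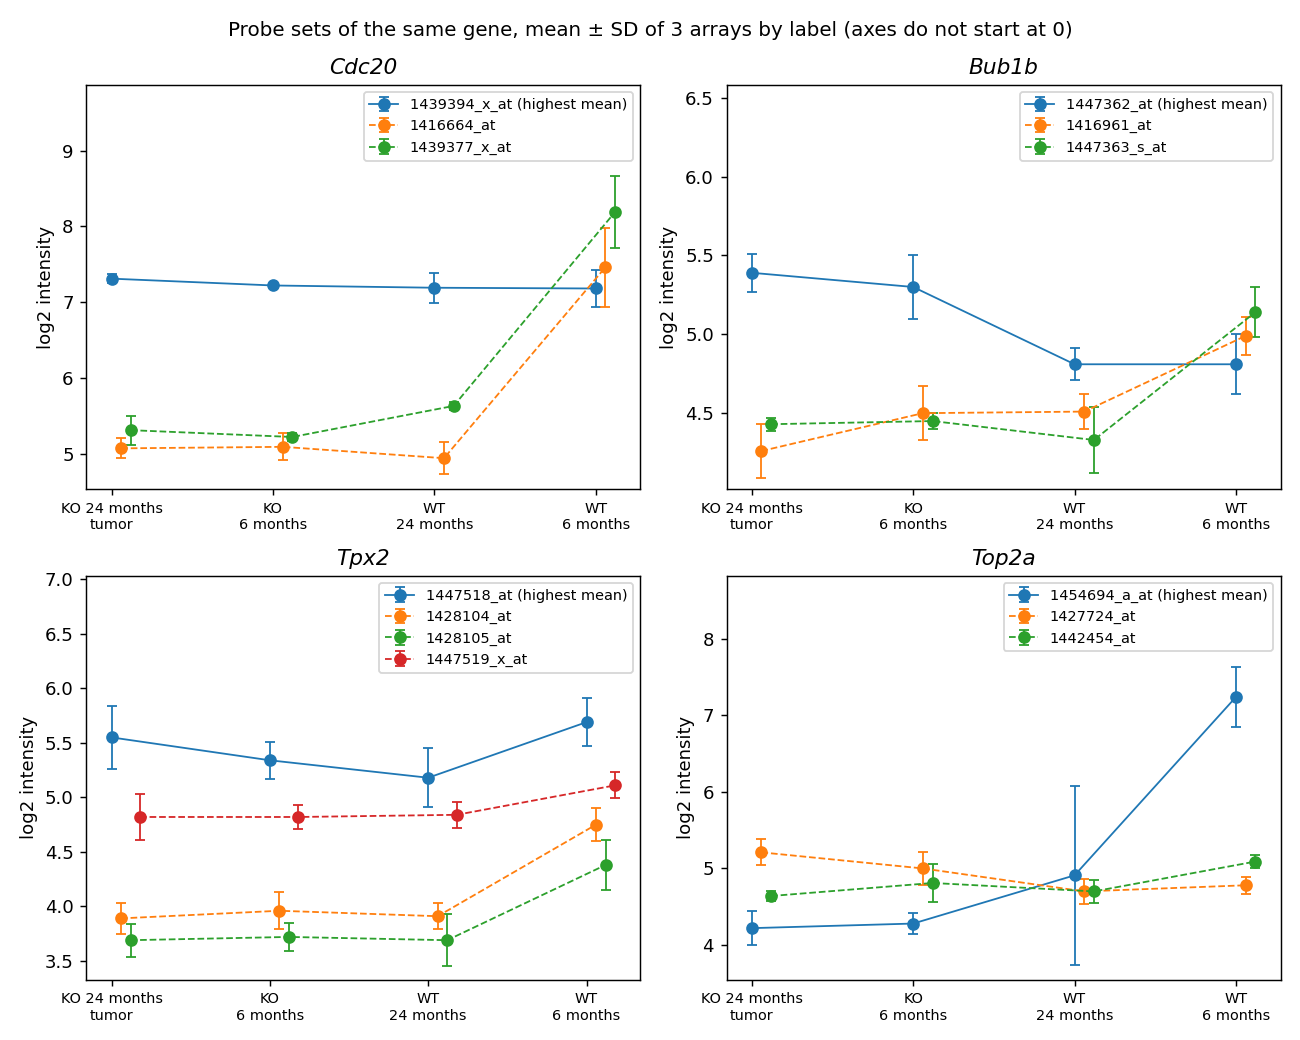
Mean ± SD of 3 arrays for every probe set of Cdc20, Bub1b, Tpx2 and Top2a, by label, in log2 intensity, with a solid line for the brightest. The brightest Cdc20 probe set is flat near 7.2 while the other 2 are highest in WT 6 months, and the probe sets of Bub1b cross.

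Other genes of the same processes, listed from general knowledge, were counted in the same way. In KO 6 months relative to WT 6 months, 8.04% of all genes were called lower and 9% higher. Of 39 other replication genes, 12 fell and 1 (Mcm10, an initiation factor) rose in that comparison, with a median of -0.23. The first by adjusted p were Pold2, a subunit of polymerase delta, with a difference of -1.22, Asf1b, a histone chaperone, with -0.77, Rpa1, of the single-strand binding protein, with -0.90, and Lig1, which joins Okazaki fragments, with -1.15. Of 63 other mitotic genes, 31 fell and 1 (Mxd3) rose, with a median of -0.48. Cdca3, Mad2l1 (a checkpoint protein), Kif22 (a chromosome-arm kinesin) and Cep55 (of abscission) fell, with differences of -1.76, -1.37, -1.86 and -1.29. In WT 24 months relative to WT 6 months, 9 of 39 and 31 of 63 fell and none rose, against 7.07% of all genes lower and 6.22% higher. In tumors labelled KO 24 months, 0 of these 39 and 0 of these 63 were called against WT 24 months or KO 6 months. Of all genes, 0.341% were called higher and 0.231% lower against WT 24 months, and 0.0330% and 0% against KO 6 months. At these shares, lists of this size would hold few or no calls in any case.

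Of 15 regulators of cell cycle transcription, 2 fell and 1 rose in KO 6 months relative to WT 6 months, against 8.04% and 9% of all genes. E2f8, a repressive E2F, fell by 1.33 in KO 6 months relative to WT 6 months (SE 0.29, limma adjusted p = 0.00916), and Rbl1 (p107) fell by 1.34 (SE 0.40, limma adjusted p = 0.0394). Rbl2 (p130), the pocket protein of quiescent cells, rose by 0.70 (SE 0.11, limma adjusted p = 0.00166), and Tfdp1, the dimer partner of E2F proteins, differed by -0.38 and did not pass. In WT 24 months relative to WT 6 months, E2f8 fell by 1.23 (SE 0.29, limma adjusted p = 0.0166), while E2f7, also a repressive E2F, rose by 1.86 (SE 0.54, limma adjusted p = 0.0417), and Rbl2 differed by 0.37 and did not pass (limma adjusted p = 0.0563). In KO 24 months tumor relative to WT 6 months, Rbl2 rose by 0.44 (SE 0.11, limma adjusted p = 0.0184) and Rbl1 was the single regulator that fell.

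Markers of sinusoidal endothelium and of stellate cells, and the sum of hepatocyte markers, were lower in the arrays labelled WT 6 months. Those of blood cells and macrophages did not set these 3 arrays apart from all 9 others. In bulk tissue, fewer cells of a type and less RNA per cell cannot be told apart. Of 8 markers of sinusoidal endothelium, 7 rose in each of the other 3 groups relative to WT 6 months, with summed linear intensities of 3208 to 3668 in KO 24 months tumor, 3442 to 3672 in KO 6 months, 2594 to 4683 in WT 24 months and 978 to 1502 in WT 6 months. Of 8 stellate cell markers, 5 rose in each, with sums of 3891 to 4217, 5398 to 5616, 4051 to 6063 and 828 to 1891 in the same order of labels. Lymphocyte markers summed to 628 to 664, 542 to 643, 1356 to 1691 and 581 to 5140 in that order, with Cd8a, Cd79a and Ms4a1 under 6 in all 12 arrays and the highest sum in replicate 3 of WT 6 months. Summed hepatocyte markers were 162360 to 163664, 167830 to 173129, 172999 to 186868 and 135478 to 153181, lowest in the 3 arrays labelled WT 6 months. Of single hepatocyte and biliary markers, only Cps1 (1 of 8) and Krt7 (1 of 4) lay below all 9 others there, against 7.79% of all genes. The sum is of linear intensities, so the brightest hepatocyte genes weigh most in it. Single hepatocyte markers went both ways relative to WT 6 months. In KO 6 months Cps1 and Tat rose and Apob fell, with a median difference of 0.05 over the 8. In KO 24 months tumor Cps1 and Hnf4a rose and Apob fell, and in WT 24 months Cps1 and Tat rose. No marker of Kupffer cells and macrophages (of 8), lymphocytes (of 9), neutrophils (of 6) or erythroid precursors (of 6) separated the 3 arrays labelled WT 6 months from all 9 others. Some of these were still called relative to WT 6 months, in comparisons whose shares of all genes are given above. Of the erythroid precursor markers, 4 rose and 1 (Tfrc) fell in KO 24 months tumor. In KO 6 months 2 rose and 1 (Tfrc) fell, and in WT 24 months 0 were called. Of the lymphocyte markers, Cd79a rose and Ighm fell in both KO groups, and the macrophage marker Clec4f rose in WT 24 months. Kupffer cell and macrophage markers summed to 2000 to 2606 in KO 24 months tumor, 2982 to 3354 in KO 6 months, 3541 to 36329 in WT 24 months and 3097 to 4731 in WT 6 months. Erythroid precursor markers summed to 2489 to 2889, 2655 to 2761, 1175 to 2169 and 1711 to 2962 in the same order of labels, with Hba-a1 under 6 in all 12 arrays. Biliary markers, of which Krt7 was under 6 in all 12 arrays, summed to 200 to 224, 170 to 218, 198 to 227 and 189 to 374. Replicate 3 of WT 24 months, which stood apart above, also held the highest sums of Kupffer cell and macrophage markers (36329, against 3541 and 5700 in the other 2 arrays of its label) and of neutrophil markers (2969, against 442 and 646), with Elane and Mpo under 6 in all 12 arrays. Neutrophil markers summed to 2572, 299 and 487 in replicates 1, 2 and 3 of WT 6 months, and to 221 to 383 in KO 24 months tumor and 235 to 269 in KO 6 months. The log2 ratio of 3′ to 5′ control probe sets, a sign of RNA integrity, lay between 0.04 and 0.40 for Gapdh and between 1.00 and 1.64 for Actb, and the range of WT 6 months spanned those of KO 6 months and WT 24 months for both. The part of these cells in the replication and mitosis values was not tested.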

How the data were processed

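The authors normalized the scans of 12 Affymetrix arrays by RMA (in R with simpleaffy, version not given in the sources used here), which corrects background, equalizes array quantiles and summarizes each probe set, and deposited log2 intensities. No array lacked any of the 45101 probe sets. Probe sets were named with the annotation supplied for the array: 34958 name 1 gene, 932 several and 9211 none listed, and the last 2 kinds were left out of gene tests. Each of 18194 genes was represented by its brightest probe set over all arrays.

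One model of 4 group means was fitted with limma 3.58.1 (R 4.3.3; lmFit, eBayes) over all genes, with Benjamini-Hochberg adjustment over all genes and a threshold of 0.05 and no fold limit. The methods named SAM with a fold of 3, and limma was used in its place, with folds of 3 and 2 as alternatives. With 3 animals against 3 an exact permutation test of a single gene cannot go below 0.1, so none is given. Arrays per group limit the precision. The p-values measure the spread among the labelled animals.

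Groups came from the deposited labels, and no array was moved. The members, role groups and other lists were chosen with earlier results of these data known. Fully described are the members with the smallest adjusted p in each role group at 6 months, those called in tumors and those never called. Promoters came from RefSeq (GRCm38.p6). Code was tested on simulated data.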

Additional observations from a re-analysis of the deposited data

Results flagged for a closer look

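For 21 of the genes named above, the difference by genotype at 24 months minus that at 6 months passed a limma adjusted p of 0.05 in the fit over all 18194 genes. All rest on the 3 arrays labelled WT 6 months, where Iqgap2 went against the label, and on the same 12 animals. In this value KO 24 months tumor and WT 6 months enter with the same sign, so exchanging their labels would leave it unchanged. Its part at 24 months sets KO tumors against normal WT liver by label, so genotype and tissue cannot be told apart in it. Among mitotic members the value was 2.67 for Ube2c, 2.35 for Mki67, 2.34 for Birc5, 2.24 for Ccnb2, 1.88 for Ect2, 1.76 for Nusap1, 1.70 for Aurka, 1.59 for Ccna2, 1.42 for Kif20a, 1.17 for Bub1, 0.89 for Prc1 and 0.75 for Cenpe. These are 12 of 28, and each was called lower in KO 6 months than in WT 6 months while none was called between KO 24 months tumor and WT 24 months. Among other mitotic genes it was 1.67 for Cdca3, 1.61 for Kif22, 1.18 for Mad2l1 and 0.99 for Cep55.

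Among replication genes outside the members the value was 1.50 for Pold2, 0.94 for Rpa1 and 0.85 for Asf1b. Transcription regulators went in opposite directions, E2f8 at 1.92 and Rbl2 at -0.62 (limma adjusted p of 0.0216 and 0.0495). None of the 15 replication members passed.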

How the results depend on the processing

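The fully described members that were lower than in WT 6 months kept their direction under the alternatives run, except Mcm7 in 1 of them. Counts moved mainly with the fold limit and with the removal of dim genes, which takes members out of the count. At a fold of 3, KO 6 months relative to WT 6 months had 0 genes higher and 11 lower, WT 24 months 8 lower, and KO 24 months tumor 1 higher and 9 lower. At a fold of 2 the counts were 0 higher and 17 lower for KO 6 months, and 16 lower for KO 24 months tumor. With genes of a mean under 6 removed, 17 members were left. Relative to WT 6 months, 9 of them were lower in KO 24 months tumor, 9 in KO 6 months and 5 in WT 24 months. For the genotype by age difference 0 were called. All 12 members called for it in the main fit had means under 6 and were removed, so this 0 says nothing about them. The 11 single-gene differences of fully described members left in this setting kept their direction and side of the threshold. Ccnf, the 1 gene higher in KO 24 months tumor than in WT 24 months, was lost (0 genes) with probe sets averaged per gene, with every probe set, with only the groups compared, with a trended and robust prior, and on the brightest probe set not marked x or s, an alternative added after the data were seen. Averaged probe sets also gave 0 genes higher in KO 6 months than in WT 6 months. With only the groups compared, 1 gene was higher in KO 24 months tumor than in KO 6 months, 2 were higher in KO 6 months than in WT 6 months, and 13, all mitotic, were lower in WT 24 months than in WT 6 months. Centring on the housekeeping genes moved the median over all genes from 0.01 to -0.13 in WT 24 months relative to WT 6 months. For the genotype by age difference it moved from 0 to 0.11. Centring so gave 1 gene (Ccnf) higher in KO 24 months tumor than in KO 6 months. Relative to WT 6 months, 0 were higher in KO 6 months and 1 in KO 24 months tumor. Of the 4 housekeeping genes measured, Hprt lay above and Gusb and Gapdh below all other arrays in WT 6 months, against 7.29% and 7.79% of all genes. This centring was thus not neutral to that group. On its brightest probe set not marked x or s, Mcm7 turned to 0.07 in KO 6 months relative to WT 6 months (limma adjusted p = 0.771).

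The counts of genes called were also taken with 1 array left out at a time. KO 24 months tumor had 0 to 2 genes called higher and 0 to 1 lower relative to WT 24 months. It had 0 to 1 called higher relative to KO 6 months. Relative to WT 6 months it had 2 to 3 higher and 20 to 28 lower. KO 6 months had 0 to 2 higher and 19 to 27 lower relative to WT 6 months. WT 24 months had 0 to 2 higher and 16 to 24 lower relative to WT 6 months. For the genotype by age difference 8 to 18 genes were called above 0. Of the 1342 single-gene values recomputed for 22 members, 1203 kept their direction and side of the threshold, 138 no longer passed and 1 turned. The replicate numbers did not pair the arrays: same-numbered arrays had r of -0.16 to 0.19, with 2 of 18 pairs over 0.1, and 11 of 36 best matches shared a number. With the replicate block, 0 genes were called higher in KO 24 months tumor than in WT 24 months. Relative to WT 6 months, 23 were called lower in KO 24 months tumor, 26 in KO 6 months and 20 in WT 24 months. For the genotype by age difference 10 were called above 0. Under the block the single-gene call of Ccnf in KO 24 months tumor relative to WT 24 months was lost. So were those of Racgap1 in WT 24 months relative to WT 6 months, and of Prc1 and Mki67 for the genotype by age difference. The causes of these shifts were not tested.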
